A study of Arabidopsis thaliana with 33 samples.

Results

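The WRKY genes of Arabidopsis thaliana encode plant transcription factors, and the question here was where the DNA in and around them was open in seedlings kept unstressed or put under heat, cold, salt or drought. The genes were chosen by name: every nuclear protein-coding gene whose RefSeq symbol is WRKY followed by a number. That rule found 67 of 27444 nuclear protein-coding genes. A further 5 genes carry a WRKY name only as a synonym (ABO3, ZAP1, TTG2, TTR1 and RRS1) and were left outside the rule, so WRKY63, listed as ABO3, was not counted.

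WRKY factors take their name from the conserved amino acids WRKY in the domain with which they hold DNA, next to a zinc finger, and most of them recognise the W-box, a short element with the core TTGAC. They are best known from immune signalling, where kinase cascades act on them, and from senescence, phosphate supply and the responses to heat, salt and drought. Many WRKY factors bind the promoters of other WRKY genes, so the family is known as a web of cross-regulated genes. By domain structure the 67 genes fall into 7 subgroups: 12 in subgroup I, 3 in IIa, 8 in IIb, 18 in IIc, 7 in IId, 7 in IIe and 12 in III. Members of subgroup I typically have a pair of WRKY domains.

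All samples were whole seedlings of the accession Columbia-0 (Col-0), 10 days old, with no mutant allele or transgene named. The groups were an unstressed control, heat (38 °C, lasting 6 h), cold (4 °C, lasting 24 h), salt (250 mM NaCl, lasting 6 h) and drought (drying in air, lasting 1 h). Each group was assayed by DNase-seq, which finds DNA that the enzyme DNase I cuts readily, and by FAIRE-seq, which recovers the DNA that formaldehyde does not cross-link to protein. There were 3 libraries per group and assay, or 2 for cold, and their peaks were deposited as 1 pooled list per group and assay, 10 lists in all; 5 RNA samples were not analysed here. Because every group is represented by 1 list, no value below has a replicate error, no test of a stress was possible, and intervals on shares are 95% Wilson intervals for counting error only. In whole seedlings, opening in fewer cells and weaker opening in each cell cannot be told apart.

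The 10 lists held between 45737 peaks (drought DNase-seq) and 92034 peaks (drought FAIRE-seq), against 70807 in control DNase-seq and 72789 in control FAIRE-seq. Under heat, salt and drought the DNase-seq list was shorter and the FAIRE-seq list longer than the control list of its assay, and under cold both were shorter. Read totals are not in the lists, so depth is unknown. Each of the 10 leaf, root and seed genes checked had a summit in all 10 lists, including the root gene SHR and the seed storage gene CRU3. So did 77.7% of all genes, and a summit by this measure does not set the seedling's tissues apart. A gene is called open in a list when at least 1 peak summit lies in the gene or within 1000 bp of either end, on build TAIR10. Strength is given as the percentile of a gene's strongest peak, meaning the percent of peaks in the same list with a lower fold enrichment as the authors' peak caller wrote it. Percentiles rank peaks within 1 list and show no change between lists.

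Nearly all WRKY genes were open in unstressed seedlings. In control DNase-seq 65 of 67 were open (97.0%, interval 89.8 to 99.2%), against 94.7% of all genes, and in control FAIRE-seq 65 were open against 93.8%. The members that were not open were WRKY56 and WRKY74 in DNase-seq, and WRKY56 and WRKY67 in FAIRE-seq. In the stress lists of DNase-seq, heat left 59 WRKY genes open (89.9% of all genes), cold 63 (92.9%), salt 62 (90.4%) and drought 59 (85.5%). In FAIRE-seq, heat left 65 open (95.6% of all genes), cold 60 (90.9%), salt 65 (96.0%) and drought 66 (96.3%). The share of all genes lay inside the interval of the WRKY share in all 10 lists.

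Where WRKY genes had peaks, these ranked high. The strongest peak of the open members had a median percentile of 90.1 in control DNase-seq against 82.0 for all open genes, and of 85.9 against 79.3 in control FAIRE-seq. In each of the 8 stress lists the members' median was also the higher, with the smallest gap in heat DNase-seq (82.7 against 79.6) and the largest in cold FAIRE-seq (89.3 against 75.6). The share of member summits inside the gene was 76.8% in control DNase-seq, against 66.6% over all genes, and 62.8% against 60.1% in control FAIRE-seq, a smaller gap; neither difference was tested. WRKY genes differed from others in their surroundings, since 56.7% of them had another protein-coding gene within 1000 bp against 80.5% of all genes, while their median length was 2006 bp against 2078 bp. The part of that spacing in these values was not tested.

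**Figure D1:**
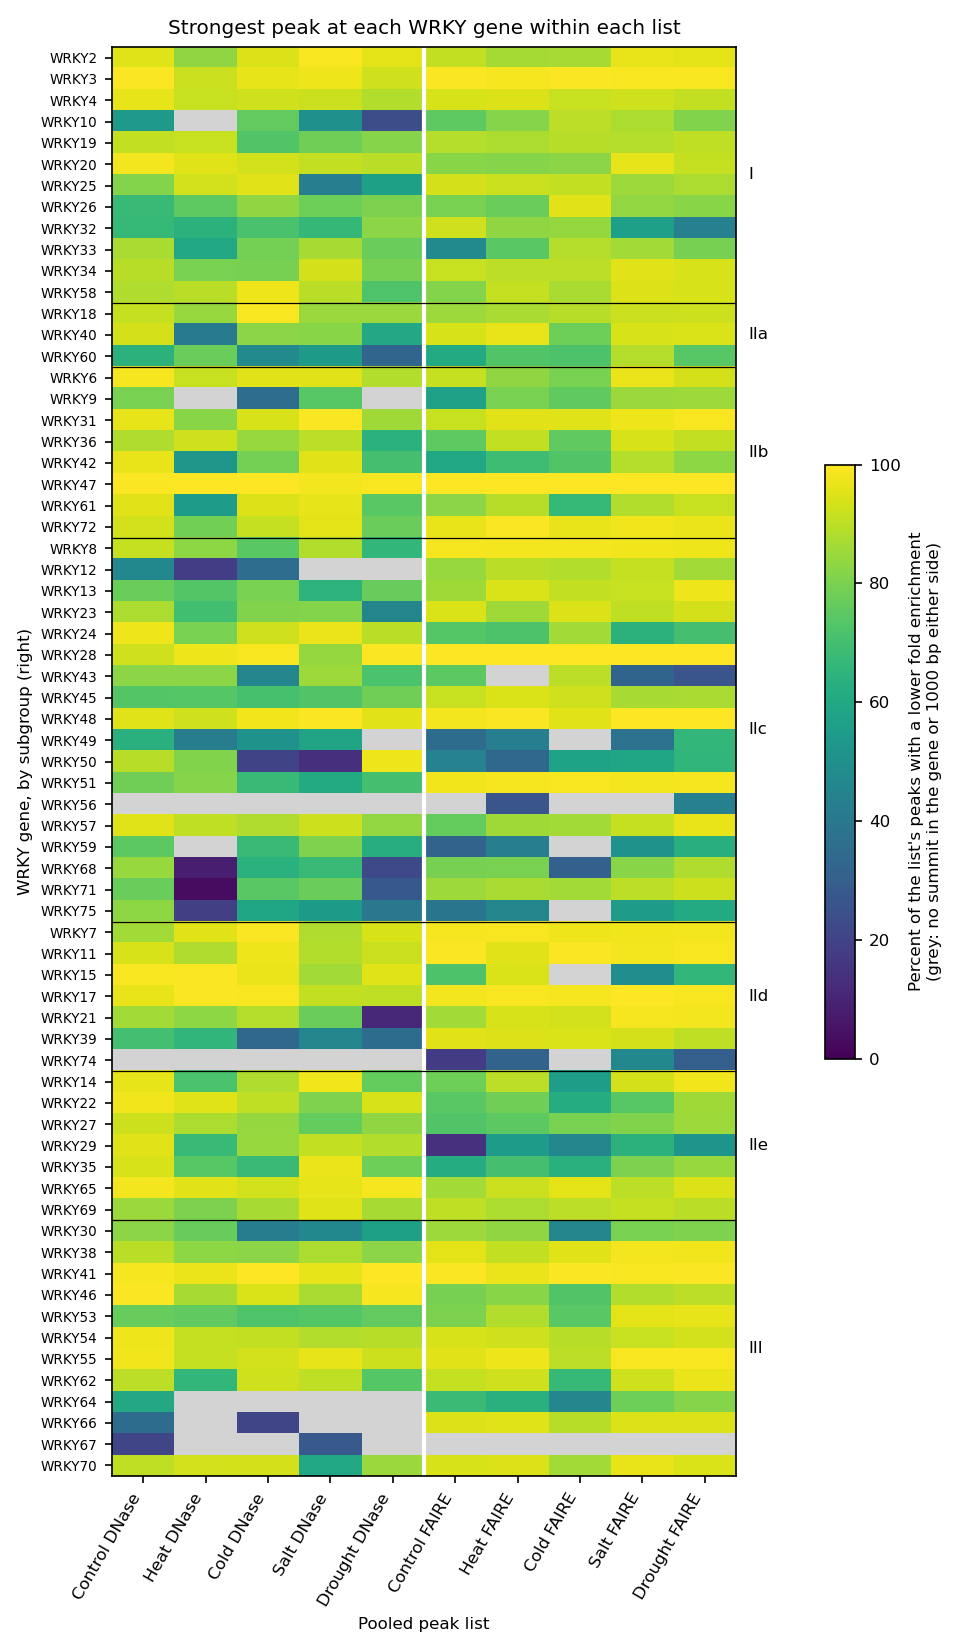
Each row is a WRKY gene, grouped by subgroup, and each column a pooled peak list; colour gives the percentile (0 to 100) of the gene's strongest peak within that list, and grey means no summit in the gene or 1000 bp either side. Most rows are filled across all 10 lists, and the grey cells gather in WRKY56, WRKY67, WRKY74, WRKY64 and WRKY66.

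Of the 67 members, 54 (80.6%) were open in all 10 lists, against 77.7% of all genes. They include the immune factors WRKY33, WRKY18 and WRKY40, the senescence regulator WRKY53, and WRKY70, which balances salicylic acid and jasmonate signalling. WRKY47 was among the highest of the family in every list: its strongest peak ranked at the percentiles 99.5, 100, 99.9, 98.3 and 99.2 in the control, heat, cold, salt and drought lists of DNase-seq. In the FAIRE-seq lists, in the same order, it ranked at 99.9, 99.9, 99.8, 99.8 and 99.9. WRKY28, which activates the salicylic acid synthesis gene ICS1, ranked at 99.8, 99.8, 99.8, 99.8 and 99.7 in FAIRE-seq, but at 92.7, 97.4, 99.1, 84.3 and 99.5 in DNase-seq.

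At the other end stood a few members open in few lists. WRKY56 had a summit in only 2 lists, heat FAIRE-seq at percentile 26.2 and drought FAIRE-seq at 43.6. WRKY67 also had 2, control DNase-seq at 21.0 and salt DNase-seq at 27.8. Both genes thus ranked low in the few lists that held them. WRKY74, of subgroup IId, was open in 4 lists, all of FAIRE-seq, at percentiles from 17.5 to 46.7, and lacked a summit in every DNase-seq list. WRKY64 was open in 6 lists, all 5 of FAIRE-seq and control DNase-seq, and WRKY66 in 7. WRKY66 was split by assay: its FAIRE-seq peaks ranked between 89.4 and 95.1 in all 5 lists, and its DNase-seq peaks at 35.4 in control and 21.0 in cold. WRKY9, WRKY12, WRKY49 and WRKY59 were open in 8 lists, and WRKY10, WRKY15, WRKY43 and WRKY75 in 9.

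Some members were open in the control list and not in the stress list of the same assay. Heat DNase-seq lacked 6 of them (WRKY9, WRKY10, WRKY59, WRKY64, WRKY66 and WRKY67; 6.26% of all genes), cold DNase-seq 2 (WRKY64 and WRKY67; 2.87%), salt DNase-seq 3 (WRKY12, WRKY64 and WRKY66; 4.51%), and drought DNase-seq 6 (WRKY9, WRKY12, WRKY49, WRKY64, WRKY66 and WRKY67; 9.37%). WRKY12 regulates cell wall thickening in the stem, and WRKY10 is the endosperm growth gene also called MINISEED3. In FAIRE-seq the cold list lacked 5 (WRKY15, WRKY49, WRKY59, WRKY74 and WRKY75; 4.35%) and the heat list 1 (WRKY43; 0.627%). WRKY75, a factor of the phosphate starvation response, had ranked at 38.8 in control FAIRE-seq. The reverse was seen at WRKY56 alone, newly open in FAIRE-seq under heat (2.40% of all genes) and drought (3.02%). No other member was newly open in FAIRE-seq under heat or drought. The remaining comparisons added 0 members: heat, cold, salt and drought DNase-seq (1.46%, 1.09%, 0.237% and 0.230% of all genes), and cold and salt FAIRE-seq (1.39% and 3.01%). Likewise 0 members stopped being open in salt FAIRE-seq (0.798%) and drought FAIRE-seq (0.572%).

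Gained and lost peaks were then compared. A gained peak is a peak of a stress list that shares no base with any control peak of the same assay, and a lost peak is a control peak that shares none with the stress list. The 4 stresses of an assay were all set against the same control list, so their counts are not independent of each other. A call says that a peak stood in one list and not in the other, and counts of calls moved with list length where this is stated below.

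**Figure D2:**
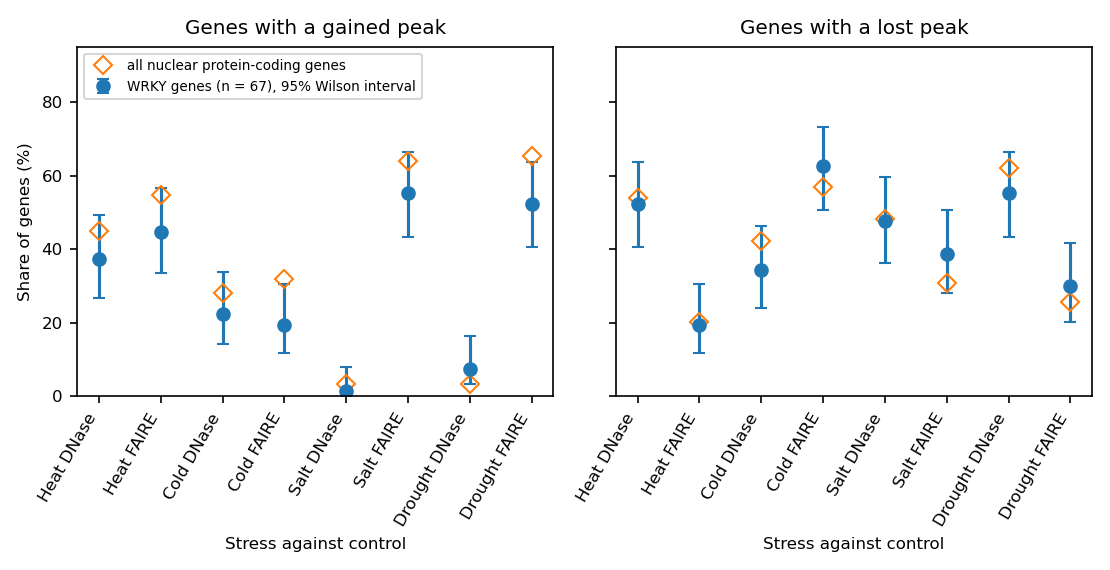
Share of genes (%) with a gained peak (left) or a lost peak (right) for each stress and assay; filled points are the 67 WRKY genes with 95% Wilson intervals for counting error, open diamonds all nuclear protein-coding genes. The WRKY point lies below the diamond in 7 of the 8 gained comparisons, drought DNase-seq being the exception.

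WRKY genes with a gained peak were fewer, as a share, than genes at large in 7 of 8 comparisons. Under heat, 25 of 67 members gained a DNase-seq peak (37.3%, interval 26.7 to 49.3%; all genes 45.0%) and 30 a FAIRE-seq peak (44.8%, 33.5 to 56.6%; all genes 54.9%). Under cold the counts were 15 in DNase-seq (22.4%, 14.1 to 33.7%; all genes 28.2%) and 13 in FAIRE-seq (19.4%, 11.7 to 30.4%; all genes 31.8%). These shares were below the background, and the interval left it outside only in cold FAIRE-seq. Under salt, 1 member gained a DNase-seq peak (1.49%, 0.264 to 7.98%; all genes 3.21%) and 37 gained a FAIRE-seq peak (55.2%, 43.4 to 66.5%; all genes 64.1%). Under drought, 5 gained a DNase-seq peak (7.46%, 3.23 to 16.3%; all genes 3.36%) and 35 a FAIRE-seq peak (52.2%, 40.5 to 63.7%; all genes 65.4%). Drought FAIRE-seq was the other comparison whose interval left the background outside. Neither held under every setting: drought FAIRE-seq gave 44.8% against 45.8% of all genes with lists of equal length (the strongest peaks of each list, cut to one number per assay), and cold FAIRE-seq gave 17.9% (10.6 to 28.7%) against 24.7% with each summit given only to its nearest gene. The DNase-seq gains under salt and drought moved with list length. With lists of equal length, 4 and 9 members gained a peak, against 15.9% and 15.0% of all genes. The drought excess over the background was then gone.

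Lost peaks were near the background in most comparisons. In DNase-seq, 35 members lost a peak under heat (52.2%; all genes 53.8%), 23 under cold (34.3%; all genes 42.2%), 32 under salt (47.8%; all genes 48.2%) and 37 under drought (55.2%; all genes 62.1%). In FAIRE-seq, 13 lost a peak under heat (19.4%; all genes 20.1%), 42 under cold (62.7%; all genes 56.9%), 26 under salt (38.8%; all genes 30.7%) and 20 under drought (29.9%; all genes 25.5%). The intervals held the background in all 8. Lists of equal length left 17 members with a lost DNase-seq peak under salt (all genes 23.2%) and 18 under drought (all genes 30.7%).

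Counted over the 8 comparisons, the median member gained a peak in 2 and lost one in 4, against 3 and 3 for all genes; the means were 2.40 against 2.96 gained and 3.40 against 3.39 lost. WRKY18 and WRKY57 gained in 6 comparisons, the most in the family (2.99% of members, against 6.83% of all genes). WRKY13, WRKY21, WRKY47, WRKY50, WRKY55 and WRKY60 followed with 5 (8.96% of members, against 14.6% of all genes). WRKY30, WRKY32 and WRKY62 lost a peak in all 8 (4.48% of members; all genes 3.46%), and WRKY2 and WRKY24 in 7 (2.99%; all genes 5.63%). WRKY65 had neither a gained nor a lost peak in any comparison, with its strongest peak between the percentiles 86.3 and 98.6 in the 10 lists. In all, 14 members never gained a peak (20.9%; all genes 13.8%) and 8 never lost one (11.9%; all genes 12.9%).

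**Figure D3:**
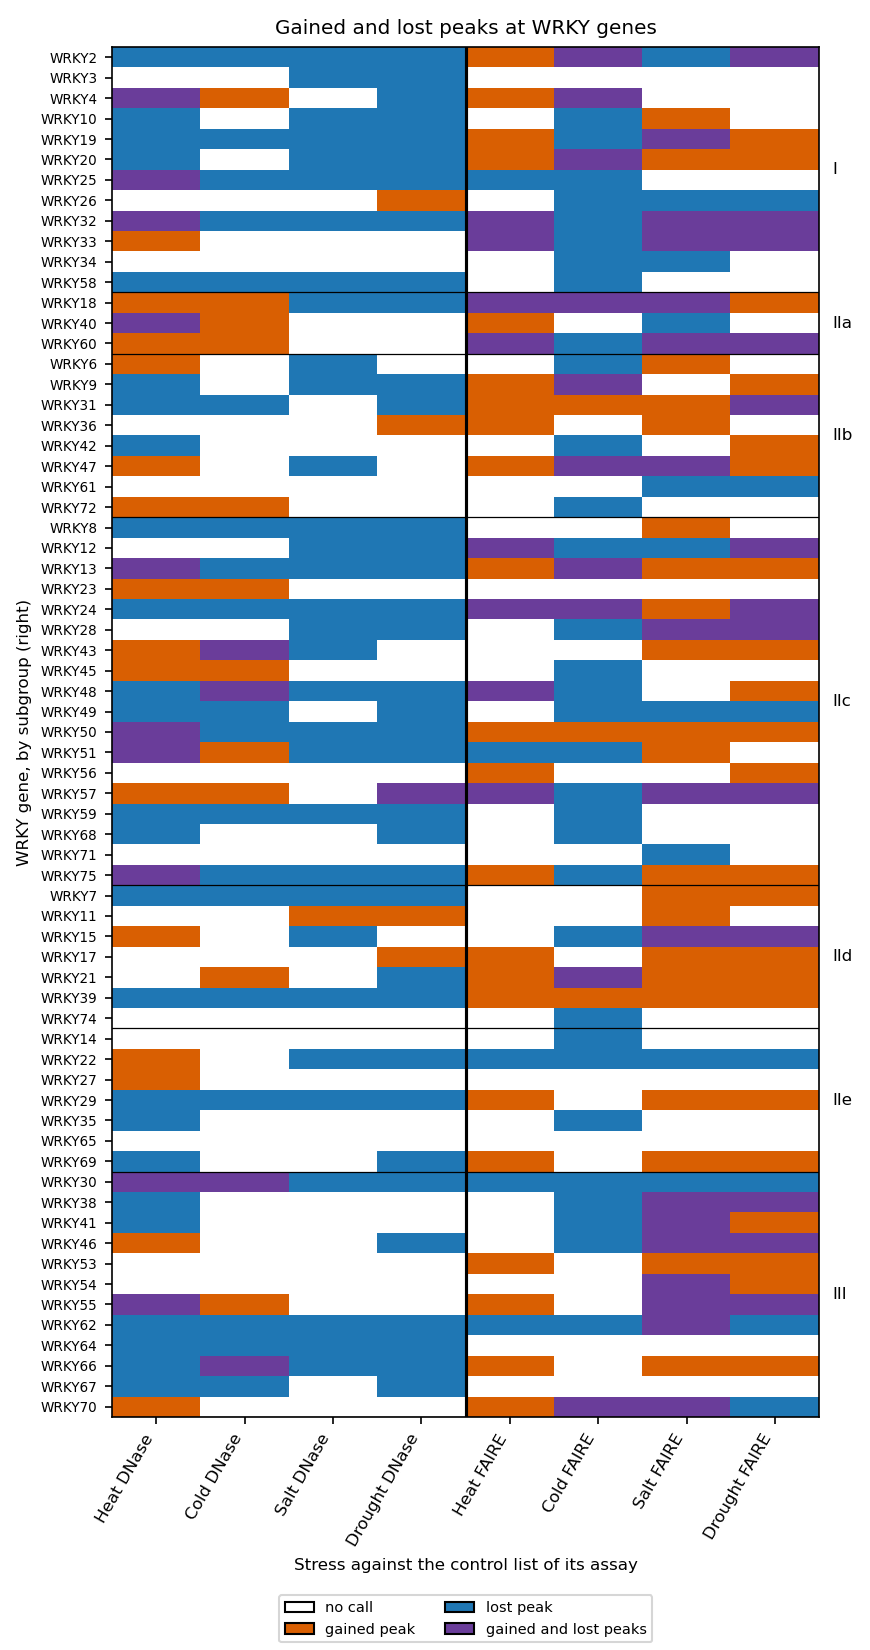
Each row is a WRKY gene and each column a stress against the control list of its assay; orange marks a gained peak, blue a lost peak, purple both, and white neither. The subgroup IIa rows are orange or purple in both heat columns, while the salt and drought columns of DNase-seq hold little orange.

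The subgroup IIa genes WRKY18, WRKY40 and WRKY60 encode factors that bind one another and act together, largely as repressors, in basal immunity and abscisic acid signalling. All 3 gained a peak in both assays under heat (27.5% of all genes), and all 3 gained a DNase-seq peak under cold (28.2% of all genes). Under heat, WRKY40 was no longer gained in both assays with the nearest gene only or with a flank of 500 bp. WRKY18 was not at a −log10 q-value of at least 5. The median number of comparisons with a gained peak was 5 for these 3 genes, against medians from 1 to 3 in the other 6 subgroups. With 3 genes this is a description only.

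At WRKY18 the gained peaks fell on one stretch inside the gene. The DNase-seq peak under heat lay at chr4:15383806-15384142 and ranked at percentile 7.13 in its list, and that under cold lay at chr4:15383890-15384123 and ranked at 28.4. FAIRE-seq listed chr4:15384014-15384201 under heat (68.9), chr4:15383821-15383941 (36.1) and chr4:15384053-15384168 (25.2) under cold, chr4:15383853-15384218 under salt (53.1) and chr4:15383860-15384193 under drought (43.6). Both control lists were empty there, so 6 of the 8 stress lists held a peak in a stretch where neither assay had one in unstressed seedlings. Among members gained in both assays, WRKY18 was the only one with overlapping gained peaks under heat when both summits had to lie in the window, and also under cold. The heat DNase-seq peak was no longer called at a −log10 q-value of at least 5. WRKY55's heat DNase-seq peak also overlapped a gained FAIRE-seq peak, whose summit fell outside its window. A flank peak of FAIRE-seq was gained under salt (chr4:15385260-15385600, percentile 54.1) and drought (chr4:15385248-15385584, 55.2), inside the neighbouring gene AT4G31805. Elsewhere in the gene, control peaks were lost: the DNase-seq peak chr4:15383213-15383388 (14.4) under salt and drought, and in FAIRE-seq chr4:15383495-15383598 (42.1) under heat, cold and salt and chr4:15383166-15383284 (57.1) under cold.

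At WRKY40, heat DNase-seq gained chr1:30383700-30383927 inside the gene (percentile 41.4) and cold DNase-seq chr1:30383777-30383922 (48.6). Control FAIRE-seq already listed chr1:30383766-30383897 at the same place, ranked at 4.48, and it was lost under salt. Its FAIRE-seq gain under heat was a flank peak, chr1:30386268-30386367 (31.3), inside the neighbouring gene AT1G80850; with a flank of 500 bp it was not called. WRKY40 also lost strong control peaks. The DNase-seq flank peak chr1:30385566-30385836, with a fold enrichment of 4.41 and percentile 87.0 in control, shared no base with the heat list and was not lost under the other stresses; it too lies inside AT1G80850. The FAIRE-seq flank peak chr1:30383407-30383571 (2.96, percentile 88.3) was lost under salt alone.

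At WRKY60, heat DNase-seq gained chr2:10631230-10631361 inside the gene (percentile 76.7) and chr2:10631586-10632181 in the flank (73.6), where cold DNase-seq listed chr2:10631636-10631762 (40.4) and chr2:10631889-10632050 (15.9). FAIRE-seq gained a peak inside the gene under heat (chr2:10630414-10630578, 54.4), salt (chr2:10630405-10630536, 45.6) and drought (chr2:10630392-10630539, 28.9). The FAIRE-seq control peak chr2:10631383-10631490, of percentile 21.0, shared no base with any of the 4 stress lists. The summits of the DNase-seq flank peaks lie inside another gene, AT2G25010.

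**Figure D4:**
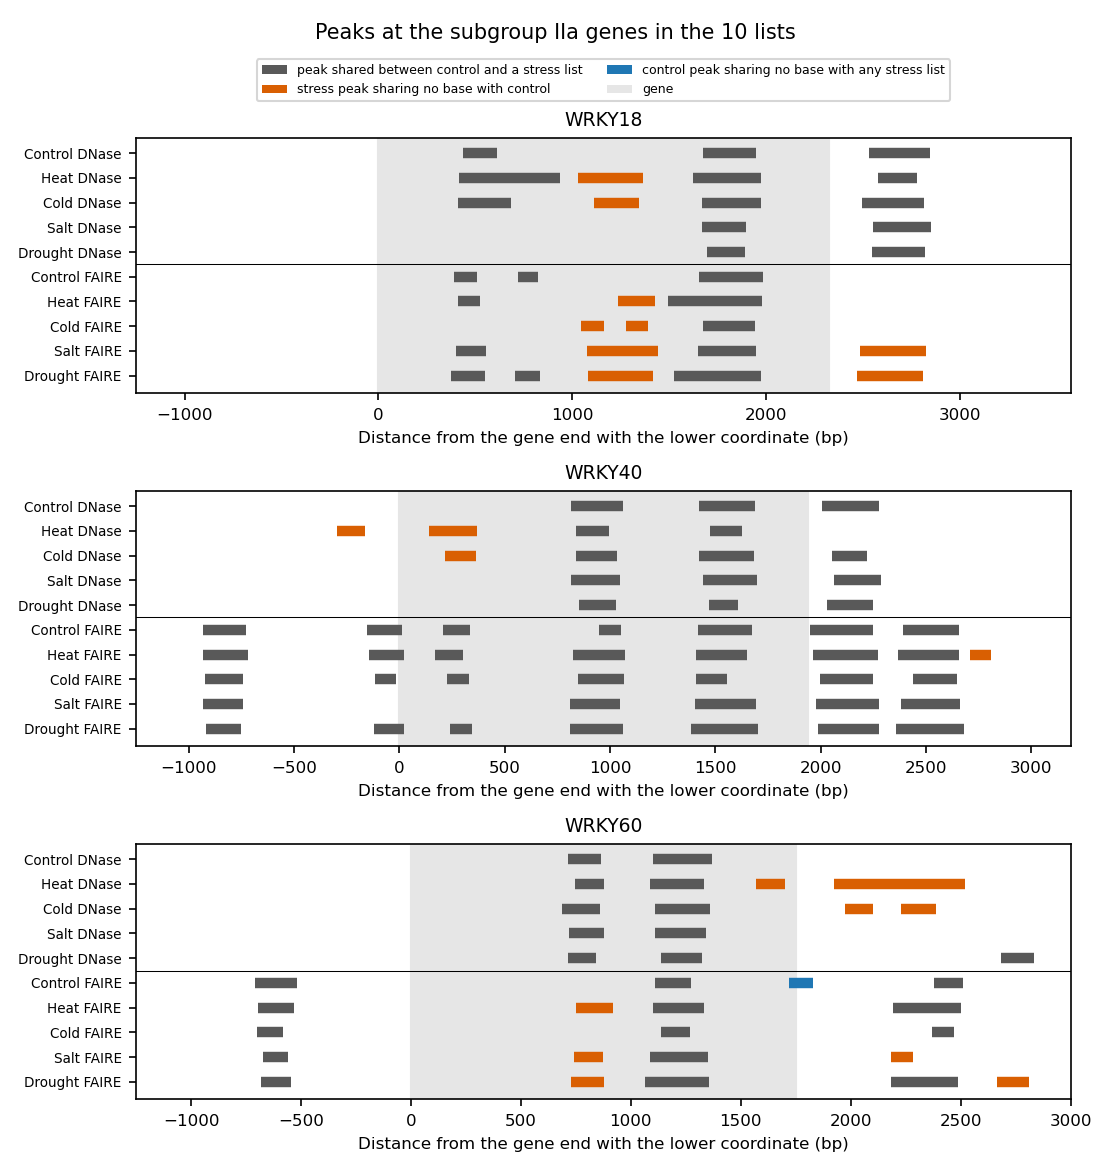
Peaks with a summit in WRKY18, WRKY40 or WRKY60 (shaded) or 1000 bp either side, in the 10 lists, by distance in bp from the gene end with the lower coordinate; orange peaks are stress peaks that share no base with the control list of their assay, blue peaks control peaks absent from all 4 stress lists, dark grey the rest. In WRKY18 the orange peaks of 6 lists stack on one stretch inside the gene.

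Heat was the stress with most members gained in both assays, 13 of 67 (19.4%, interval 11.7 to 30.4%), which was below the 27.5% of all genes. By the lower of the percentiles in the 2 assays they were, from the top, WRKY55, WRKY60, WRKY70, WRKY57, WRKY47, WRKY40, WRKY4, WRKY50, WRKY33 and WRKY18, with WRKY32, WRKY13 and WRKY75 below them. With each summit given only to its nearest gene, 6 remained (WRKY13, WRKY18, WRKY33, WRKY57, WRKY60 and WRKY70), and with a flank of 500 bp 8. At WRKY55 the DNase-seq peak chr2:16995892-16996264 ranked highest (86.5) but lies in the neighbouring gene CTEXP. At WRKY70 the DNase-seq peak chr3:20909797-20909941 (45.3) and the FAIRE-seq peak chr3:20908769-20908868 (57.6) both lay inside the gene without overlapping.

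WRKY25, WRKY26, WRKY33 and WRKY39 are known for roles in heat tolerance, and WRKY33 also for driving camalexin synthesis against fungi under the kinases MPK3 and MPK6. WRKY33 gained 2 DNase-seq peaks under heat, chr2:16108009-16108131 in the flank (percentile 8.09) and chr2:16108494-16108799 inside the gene (23.4), and none under the other stresses. It lost no DNase-seq peak in any stress. In FAIRE-seq it gained chr2:16109629-16109747 under heat (14.5), chr2:16109591-16109747 under salt (29.2) and chr2:16109441-16109756 under drought (37.8), which overlie one another inside the gene. The control FAIRE-seq peak chr2:16110736-16110851 (41.4), 19 bp outside WRKY33 and inside its neighbour AT2G38480, was lost under all 4 stresses. WRKY33 thus had 2, 4, 2, 2 and 2 summits in the control, heat, cold, salt and drought lists of DNase-seq, and 5, 6, 2, 5 and 6 in those of FAIRE-seq.

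WRKY39 differed between the assays. FAIRE-seq gained 2 peaks at it under every stress, always with one at the same place in the flank (chr3:1265279-1265444 under heat, chr3:1265298-1265426 under cold, chr3:1265304-1265412 under salt and chr3:1265278-1265420 under drought). These ranked at 2.35, 16.9, 17.6 and 40.9, and their summits lie inside the neighbouring gene AT3G04660. A neighbouring peak was gained under cold (chr3:1265587-1265686), salt (chr3:1265570-1265708) and drought (chr3:1265580-1265693), ranked at 39.5, 62.4 and 45.2, also inside AT3G04660. DNase-seq gained none, and its weak control peak chr3:1269051-1269156 (5.78) was lost under all 4 stresses. WRKY26 gained a peak only in drought DNase-seq (chr5:2204303-2204412, 21.1), and WRKY25 only in heat DNase-seq (chr2:12904265-12904508, 9.60). WRKY25 lost a DNase-seq peak under each stress; under heat it was the flank peak chr2:12902604-12902778 (61.0), inside the neighbouring gene ATCHX13.

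**Figure D5:**
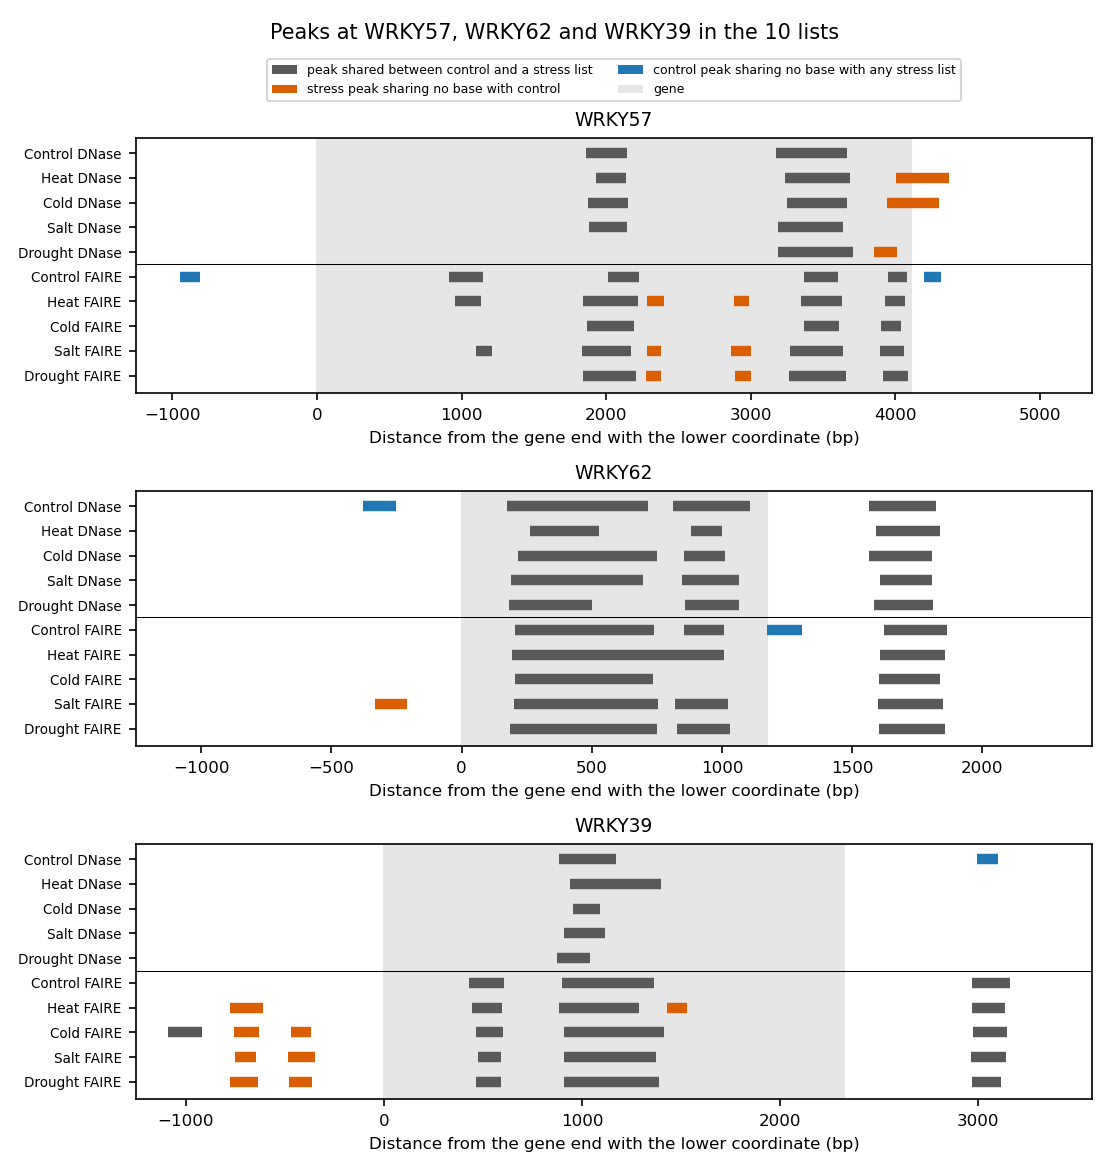
Peaks at WRKY57, WRKY62 and WRKY39 in the 10 lists, drawn as distance in bp from the gene end with the lower coordinate, with the gene shaded; orange peaks share no base with the control list of their assay, blue control peaks share none with any stress list of theirs, dark grey are the rest. The orange FAIRE-seq peaks left of WRKY39 recur in all 4 stresses, and WRKY62 has a blue peak in each assay.

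Cold brought 3 members gained in both assays (4.48%, interval 1.53 to 12.4%; all genes 10.5%): WRKY21, WRKY18 and WRKY4. At WRKY21 these were chr2:13033485-13033639 in DNase-seq (48.6) and chr2:13034032-13034132 in FAIRE-seq (46.4), both inside the gene. Lists of equal length gave 8 members in place of 3 (all genes 13.7%), and asking that 50% of a peak be covered before it counts as shared gave 6 (all genes 14.1%). Loss was the commoner call under cold: 13 members lost a peak in both assays (19.4%, 11.7 to 30.4%; all genes 26.1%). The highest ranked of them were WRKY2, a factor of pollen and early embryo polarity, with chr5:22780033-22780270 in DNase-seq (77.4) and chr5:22779521-22779652 in FAIRE-seq (81.2), and WRKY13, with chr4:18335654-18335819 (64.3) and chr4:18334749-18334929 (68.3). WRKY19, WRKY49, WRKY75, WRKY59, WRKY48, WRKY25, WRKY24 and WRKY58 followed, and WRKY32, WRKY62 and WRKY30 ranked below them. With lists of equal length 11 were called, of which 6 were among these 13. Of the 12 members of subgroup I, 11 lost a FAIRE-seq peak under cold, WRKY3 being the exception, against 56.9% of all genes. The other subgroups had 2 of 3 in IIa, 5 of 8 in IIb, 12 of 18 in IIc, 3 of 7 in IId, 3 of 7 in IIe and 6 of 12 in III. This contrast was picked from many subgroups and comparisons and was not tested. Subgroup I genes had a median length of 2445 bp, above the 2006 bp of the family, and its part in the count was not tested. WRKY34, known for cold sensitivity of pollen, was among them with chr4:13356840-13356953 (16.5) and chr4:13358909-13359022 (2.94), both weak peaks.

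Under salt, WRKY11 alone gained a peak in both assays (1.49%, 0.264 to 7.98%; all genes 2.50%). WRKY11 is a negative regulator of basal resistance. Its peaks coincided, at chr4:15288767-15288866 in DNase-seq (percentile 42.7) and chr4:15288765-15288887 in FAIRE-seq (71.3), and drought DNase-seq held chr4:15288764-15288887 (36.4), with no control peak in either assay. The summits lay 953 to 965 bp outside the gene, near the limit of the window, so with a flank of 500 bp no member was gained in both assays. With lists of equal length 2 were (all genes 8.66%).

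Loss in both assays under salt was seen at 11 members (16.4%, 9.42 to 27.1%; all genes 15.9%), a share near the background. WRKY47 ranked first, with the DNase-seq peak chr4:744923-745123 (84.1) and the FAIRE-seq peak chr4:748995-749277 (73.6). WRKY15, a regulator of growth under salt and osmotic stress, came next; its lost DNase-seq and FAIRE-seq peaks overlapped, the only such case under salt. WRKY12, WRKY22, WRKY19, WRKY28, WRKY18, WRKY32, WRKY2, WRKY62 and WRKY30 made up the rest. Lists of equal length gave 7 (all genes 9.58%), of which 5 were among these 11. WRKY8, known for salt tolerance, lost chr5:18804619-18804739 in DNase-seq under salt (17.6) and gained chr5:18803459-18803562 in FAIRE-seq (25.6).

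Under drought, WRKY57 and WRKY17 gained a peak in both assays (2.99%, interval 0.822 to 10.2%; all genes 2.40%). WRKY57 is known for drought tolerance and for slowing jasmonate-induced senescence, and WRKY17 acts with WRKY11 in basal resistance. At WRKY57 the DNase-seq peak chr1:26058125-26058288 (44.1) lay in the gene, and DNase-seq also gained chr1:26058281-26058642 under heat (80.6) and chr1:26058214-26058575 under cold (35.0) at the same end. FAIRE-seq gained a pair of peaks inside the gene under heat, salt and drought, the first at chr1:26056557-26056675 (39.9), chr1:26056554-26056653 (23.3) and chr1:26056548-26056654 (27.8). With lists of equal length WRKY57 no longer gained a FAIRE-seq peak under drought, though under heat it still did. At that setting 3 members were called in both assays under drought (all genes 6.46%), of which 1 was among these 2. At WRKY17 the peaks were apart, chr2:10439298-10439399 in DNase-seq (21.3) and chr2:10437090-10437225 in FAIRE-seq (49.7).

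Members lost in both assays under drought numbered 12 (17.9%, 10.6 to 28.7%; all genes 16.3%): WRKY2, WRKY12, WRKY46, WRKY57, WRKY49, WRKY22, WRKY31, WRKY28, WRKY24, WRKY32, WRKY62 and WRKY30. None of their DNase-seq and FAIRE-seq peaks overlapped. Lists of equal length gave 7 (all genes 11.6%), 5 of them among these 12. WRKY46, which acts with WRKY54 and WRKY70 in growth and drought responses, lost chr2:19043672-19044131 in DNase-seq (46.6) and chr2:19045378-19045490 in FAIRE-seq (78.0). Under heat 7 members lost a peak in both assays (10.4%, 5.15 to 20.0%; all genes 12.1%): WRKY30, WRKY48, WRKY51, WRKY24, WRKY32, WRKY62 and WRKY25. Of these 7, only 3 were among the 10 called with lists of equal length, and 4 among the 9 called at a −log10 q-value of at least 5.

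WRKY30, WRKY32 and WRKY62 lost a peak in every comparison, and for each gene a control peak of each assay recurred. WRKY62, a negative regulator of basal defence together with WRKY38, had a strong FAIRE-seq peak 61 bp outside the gene, chr5:352096-352232, with a fold enrichment of 3.12 and percentile 91.1. It shared no base with any of the 4 FAIRE-seq stress lists. Its lost DNase-seq peak, chr5:350548-350674, was weak (6.03) and also absent from all 4. WRKY32 lost chr4:15052578-15052690 in DNase-seq (9.83) and chr4:15054106-15054225 in FAIRE-seq (11.3) under each stress. At WRKY30, known for protection from oxidative stress, the recurrent losses were chr5:8153431-8153543 in DNase-seq (4.27) and chr5:8154173-8154274 in FAIRE-seq (28.0), while the stronger DNase-seq peak chr5:8152046-8152251 (82.6), inside the neighbouring gene AGP41, was lost under heat alone. Most recurrent losses were thus weak control peaks, and the FAIRE-seq peak of WRKY62 was strong. The loss in every comparison ended for WRKY30 and WRKY62 at a −log10 q-value of at least 5, where neither lost a DNase-seq peak under cold, salt or drought, and for all 3 genes with lists of equal length.

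Several known stress and immune members kept all their DNase-seq control peaks. WRKY53 lost no peak in either assay, with 2 summits in each of the 5 DNase-seq lists, and gained FAIRE-seq peaks under heat, salt and drought, among them chr4:12393531-12393663 (44.3), chr4:12393516-12393639 (2.57) and chr4:12393551-12393661 (28.8) at one place inside the gene. WRKY70 gained a DNase-seq peak only under heat and lost none, but its FAIRE-seq peak chr3:20910585-20910687 (70.1), 34 bp outside the gene, was lost under cold, salt and drought. WRKY54 and WRKY55 are neighbours and the only members whose windows overlap; the strong FAIRE-seq peak between them, chr2:17000127-17000285 (fold enrichment 3.34, percentile 94.0), was lost under salt and is counted for both. WRKY54 had 2 summits in all 5 DNase-seq lists with none gained or lost.

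Of the genes for phosphate supply, WRKY6 and WRKY42 act on the phosphate exporter gene PHO1, and WRKY45 on the phosphate transporter gene PHT1;1. WRKY45 gained one DNase-seq site inside the gene under heat (chr3:326100-326441, 64.4) and cold (chr3:326093-326264, 34.1) and lost a FAIRE-seq peak under cold alone. WRKY6 lost the strong FAIRE-seq flank peak chr1:23020269-23020438 (89.0) under cold. That peak also overlapped a control DNase-seq peak lost under cold, whose summit fell outside the WRKY6 window. Heat DNase-seq gained chr1:23020257-23020382 (48.9), which overlaps the FAIRE-seq peak but shares no base with a control DNase-seq peak. WRKY42 lost chr4:2218351-2218562 in heat DNase-seq (73.9). WRKY75 lost chr5:4149939-4150060 in DNase-seq (32.3) under all 4 stresses and gained a FAIRE-seq flank peak, inside the neighbouring gene AT5G13070, under heat, salt and drought. WRKY71, known for shoot branching and flowering, had a single call, the FAIRE-seq flank peak chr1:10456275-10456516 (85.5) lost under salt.

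WRKY22 and WRKY29, which act downstream of the kinase cascade that flagellin starts, went different ways in FAIRE-seq. WRKY22 lost chr4:522458-522557 (34.7) under all 4 stresses and gained none. WRKY29, with a single weak FAIRE-seq peak in control (percentile 14.4), lost none and gained chr4:12291809-12292047 under heat (23.3), chr4:12291806-12292070 under salt (51.0) and chr4:12291800-12292096 under drought (51.8). In DNase-seq WRKY29 lost under every stress chr4:12292409-12292523 (17.6), inside the gene, and chr4:12293990-12294107 (32.3), inside the neighbouring gene GH9B15. Its summits went from 5 in control to 2, 2, 3 and 2 under heat, cold, salt and drought.

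Calls of the 2 assays were next laid over each other, since a peak new in one assay may lie where the other already had one. Of the 28 member DNase-seq peaks gained under heat, 21 (75%) overlapped a control FAIRE-seq peak, against 56.1% of such peaks at all genes. Under cold it was 11 of 16 (68.8%; all genes 69.6%). Of the FAIRE-seq peaks gained at members, 35 of 53 (66.0%) under salt and 30 of 55 (54.5%) under drought overlapped a control DNase-seq peak, against 59.5% and 55.8% at all genes. The shares were lower in the other comparisons: 16 of 36 (44.4%; all genes 52.0%) in heat FAIRE-seq, 5 of 15 (33.3%; all genes 57.2%) in cold FAIRE-seq, 2 of 5 (40%; all genes 64.1%) in drought DNase-seq, and 0 of 1 in salt DNase-seq. Gained peaks at places already listed in control by the other assay were thus common in both assays, but their share at members lay above that of all genes in some comparisons and below it in others.

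Opposite calls at one place were also found. In heat, 4 of the 28 DNase-seq peaks gained at members (14.3%; all genes 4.00%) overlapped a FAIRE-seq peak lost under heat, at WRKY22, WRKY25, WRKY32 and WRKY57. Cold gave 2 of 16 (12.5%; all genes 13.1%) and drought 0 of 5 (all genes 6.58%). At WRKY22 the heat peaks were chr4:522466-522589 gained in DNase-seq and chr4:522458-522557 lost in FAIRE-seq. At WRKY57 the FAIRE-seq peak chr1:26058471-26058591 (44.0), lost under all 4 stresses, lies within the DNase-seq peak gained under heat. In the other direction the members' shares were below those of all genes: 4 of 52 DNase-seq peaks lost under heat (7.69%; all genes 18.2%), 7 of 41 under salt (17.1%; all genes 28.3%) and 8 of 57 under drought (14.0%; all genes 29.2%) overlapped a FAIRE-seq peak gained under the same stress. These differences were not tested, and the counts are small.

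Examples of DNase-seq loss with FAIRE-seq gain at one place under the same stress came from WRKY47, WRKY55 and WRKY24. At WRKY38 the loss and the gains shared a place but came under different stresses. At WRKY47 the DNase-seq peak chr4:744923-745123 (fold enrichment 4.21, percentile 84.1) was lost under salt, and FAIRE-seq gained a peak at that place under heat (chr4:744966-745100), cold (chr4:745008-745111), salt (chr4:744951-745106) and drought (chr4:744965-745117). At WRKY55 the DNase-seq peak chr2:16998302-16998486 (4.01, percentile 80.4) was lost under heat, where FAIRE-seq gained chr2:16998331-16998442. At WRKY24 the weaker peak chr5:16624313-16624469 (percentile 17.6) was lost in DNase-seq under heat and drought, and FAIRE-seq gained chr5:16624266-16624480 and chr5:16624254-16624510 there. At WRKY38 the DNase-seq peak chr5:7496491-7496744 (4.62, percentile 89.7) was lost under heat, and FAIRE-seq gained chr5:7496544-7496710 under salt and chr5:7496534-7496707 under drought.

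The places of lost FAIRE-seq peaks were also compared. Only 1 of 35 member peaks lost under salt and 0 of 25 under drought overlapped a control DNase-seq peak, against 3.59% and 4.51% at all genes. The low overlap under salt and drought was thus general. Under heat it was 1 of 14 (7.14%, all genes 24.7%) and under cold 32 of 69 (46.4%, all genes 42.8%). Of the lost calls, 27.8% under salt and 24.0% under drought had their summit inside the WRKY gene, against 41.6% and 38.7% at all genes. The shares were 28.6% under heat and 58.0% under cold, against 52.2% and 58.4% at all genes. These differences were not tested. Over all gene ends, the strongest control FAIRE-seq summits gathered 50 to 150 bp outside the gene on all 5 chromosomes. The lost FAIRE-seq peaks of WRKY62, WRKY70, WRKY22, WRKY33 and WRKY60 had their summits 61, 34, 28, 19 and 30 bp outside the gene. Of these, picked from the flank losses, only the WRKY62 summit lay 50 to 150 bp out. Other FAIRE-seq peaks lost under both salt and drought had summits farther out, among them WRKY12 (95 bp), WRKY26 (119 bp), WRKY61 (718 bp) and WRKY57 (868 bp).

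The WRKY pathway list held 35 genes that were not chosen by the name rule (12 kinases, 7 binding partners and 16 target genes). They were open in all 10 lists except MKK2 (5 lists), CPK4 (8), CYP71A13 (9) and SAG12 (9). Of all genes, 77.7% were open in all 10. In heat DNase-seq 17 of 35 gained a peak (48.6%; all genes 45.0%) and in heat FAIRE-seq 16 (45.7%; all genes 54.9%). Under cold 10 gained a DNase-seq peak (28.6%; all genes 28.2%) and 16 a FAIRE-seq peak (45.7%; all genes 31.8%). Salt gave 0 in DNase-seq (all genes 3.21%) and 20 in FAIRE-seq (57.1%; all genes 64.1%), and drought 2 (5.71%; all genes 3.36%) and 19 (54.3%; all genes 65.4%). By role, 8 of the 12 kinases gained a DNase-seq peak under cold, among them MPK4, MPK6 and MEKK1, and 1 of the 16 targets did, the immune regulator EDS1. This contrast was picked after its values were seen and was not tested, and in heat FAIRE-seq 6 of 12 kinases and 6 of 16 targets gained a peak. Lost peaks in the list ranged from 7 of 35 in heat FAIRE-seq (20.0%; all genes 20.1%) to 23 of 35 in heat DNase-seq (65.7%; all genes 53.8%).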

How the data were processed

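Processing before deposit was the submitters' own: their processing notes list MACS2, Bowtie2, TopHat2, SAMtools, FastQC and build TAIR10 with no versions, and caller settings, duplicate removal or a cut site shift are not given there. The titles mark libraries with D or F, taken as DNase-seq and FAIRE-seq. Each deposited list gives per peak a fold enrichment (a ratio), −log10 of the q-value, a score, and the distance of the summit from the peak start. The fold enrichment only ranked peaks within a list, the −log10 q-value only filtered them, and the deposited score was not used.

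RefSeq's gene table (TAIR10.1) supplied positions and symbols but no strand, so promoters were not told from downstream flanks and no gene coordinates are printed; coordinates shown are those of peaks, counted from 1. Planned motif searches in promoters and proteins were not run, because no sequences were used. Overlaps and counts were made with Python 3.11.15, numpy 2.4.6 and pandas 2.3.3, and checked on simulated peaks. Gained and lost calls need 0 shared bases. Named genes were all members gained or lost in both assays of a stress (the 10 highest by the lower percentile described), those open in all or fewest lists, those with most calls, and a set list of known stress members; a few more were named after their values were seen. The members and lists were chosen with earlier results of these data known. Alternatives were a −log10 q-value of at least 5, lists of equal length (45737 peaks for DNase-seq, 63060 for FAIRE-seq), 50% of a peak covered, a 500 bp flank, and the nearest gene only.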

Additional observations from a re-analysis of the deposited data

How the results depend on the processing

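Under lists of equal length, 8 counts of members moved by over 1.5 times: gained peaks in salt DNase-seq went from 1 to 4, in drought DNase-seq from 5 to 9, and in both assays from 3 to 8 under cold and from 1 to 2 under salt, while lost peaks went from 32 to 17 in salt DNase-seq, from 37 to 18 in drought DNase-seq, and in both assays from 11 to 7 under salt and from 12 to 7 under drought. This alternative cuts the longer lists, which by itself can move counts of calls, and its part in these 8 shifts was not tested. A flank of 500 bp, which leaves less DNA to search, gave 0 for gained salt DNase-seq, 3 for gained drought DNase-seq, and 8 and 0 for members gained in both assays under heat and salt. The nearest gene only gave 6 gained in both assays under heat, and 50% coverage gave 6 under cold. All other counts stayed within 1.5 times under the 5 alternatives, which says nothing of which genes were called: of 7 members lost in both assays under heat 3 recurred with lists of equal length, and of 13 under cold 6. The −log10 q-value of at least 5 moved no count of members by over 1.5 times. The share of members with a gained peak was below that of all genes in 7 of 8 comparisons in the main result and under each of the 5 alternatives, whereas for lost peaks it was below in 5 of 8, and in 2 to 5 of 8 under the alternatives. The exception among the gained was not always the same. With lists of equal length it was cold DNase-seq (29.9% against 29.3%), and drought DNase-seq lay below (13.4% against 15.0%). The counts in both assays were added after seeing the data. No paired analysis was possible because each list pools all libraries of its group, and for the same reason no library could be left out. Depth is unknown, so an unlisted peak may be one too weak to be called.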
